A study of Homo sapiens with 16 samples.

Results

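The 31 genes encode the transporters and enzymes that take up glucose, break it down to pyruvate, turn pyruvate into lactate and export it. They also encode the kinases that hold pyruvate back from the citric acid cycle and the enzymes of the pentose phosphate branch. They were taken by function, and each has a translation ratio in all 8 cultures of the deposited table. They are 31 of the 15864 genes with a ratio in every culture and of the 28252 genes of the table. H9 cells, a human embryonic stem cell line grown in mTeSR1 medium without feeder cells, received either siOCT4, an siRNA against OCT4 (POU5F1), or a control siRNA (labelled NC), and were kept in hypoxia or normoxia. The 4 groups, with 2 cultures each, were siOCT4 at 1% oxygen, control siRNA at 1% oxygen, siOCT4 at 20% oxygen and control siRNA at 20% oxygen. Every group received an siRNA, all cells were of the 1 line, and how long the siRNA and the low oxygen were applied is not given in the sources used here. Each culture gave 1 library of total RNA and 1 of the messages carried by ribosome-nascent chain complexes (RNC), that is, caught in the act of translation, 16 libraries in all. The translation ratio of a gene is its RNC value over its RNA value in a culture, so that a high ratio means that a larger part of its message was on ribosomes relative to other genes of the same culture.

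Glycolysis splits glucose into pyruvate and yields ATP without oxygen, and lactate dehydrogenase keeps it running by regenerating NAD+. In low oxygen the transcription factor HIF-1 raises the transcription of many of these genes, among them the glucose transporter SLC2A1, PGK1, LDHA, SLC16A3 and PDK1. Primed human embryonic stem cells are known for a high rate of glycolysis. These facts concern transcription and metabolism, whereas the ratio reports how the message is distributed between ribosomes and the total pool.

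The table holds ratios and no levels, so the depth of each library is unknown and either the RNC or the RNA library can account for a change of the ratio. In such bulk samples fewer cells of a type and less RNA per cell cannot be told apart. The siRNA target POU5F1 had ratios of 0.453 and 0.532 with siOCT4 at 1% oxygen, 1.13 and 0.81 with control siRNA at 1% oxygen, 1.41 and 1.42 with siOCT4 at 20% oxygen, and 0.758 and 0.981 with control siRNA at 20% oxygen, which is not a measure of its RNA level and does not check the knockdown. Of the markers of other cell types, all 15 of 15 pluripotency genes had a ratio in every culture, as did 3 of 7 trophoblast, 5 of 5 endoderm, 3 of 5 mesoderm, 4 of 4 neuroectoderm and 4 of 7 fibroblast genes, which says that reads were found and not how many.

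The ratio also depended on base composition, and differently in each group. The GC content of the transcript (the share of G and C bases) took up 64.6% and 66.5% of the log2 variance between genes in the cultures with siOCT4 at 1% oxygen, 0.0639% and 10.1% with control siRNA at 1% oxygen, 14.1% and 9.2% with siOCT4 at 20% oxygen, and 71.9% and 65.1% with control siRNA at 20% oxygen. In the siOCT4 cultures at 1% oxygen and the control cultures at 20% oxygen, GC-rich transcripts had low ratios. The 31 genes were on the GC-rich side, with a median GC content of 54.8% against 49.3% for the tested genes. Of them 22 had a GC content of at least 48% and 9 were AT-rich: SLC2A3, PFKFB2, PGK1, LDHA, LDHB, SLC16A1, PDK1, PDK3 and PGM1. Each change is therefore given as deposited and, where the values are called GC corrected, relative to the trend on GC content of all genes in the same culture.

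In control cells at 1% oxygen the glycolytic messages stood above those of the other 3 groups. The median ratio of the 31 genes was 0.468 and 0.489 with siOCT4 at 1% oxygen, 1.19 and 1.10 with control siRNA at 1% oxygen, 0.876 and 0.901 with siOCT4 at 20% oxygen, and 0.442 and 0.500 with control siRNA at 20% oxygen. The median of all genes was 1.35 and 1.31, 1.02 and 1.02, 1.11 and 1.11, and 1.14 and 1.20 in the same order of groups. The control cultures at 1% oxygen were thus the 2 in which the median of the 31 genes was above that of all genes. Set against the GC trend of the same culture, 28 and 28 of the 31 genes lay below it with siOCT4 at 1% oxygen, 9 and 9 with control siRNA at 1% oxygen, 28 and 24 with siOCT4 at 20% oxygen, and 25 and 27 with control siRNA at 20% oxygen.

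**Figure D1:**
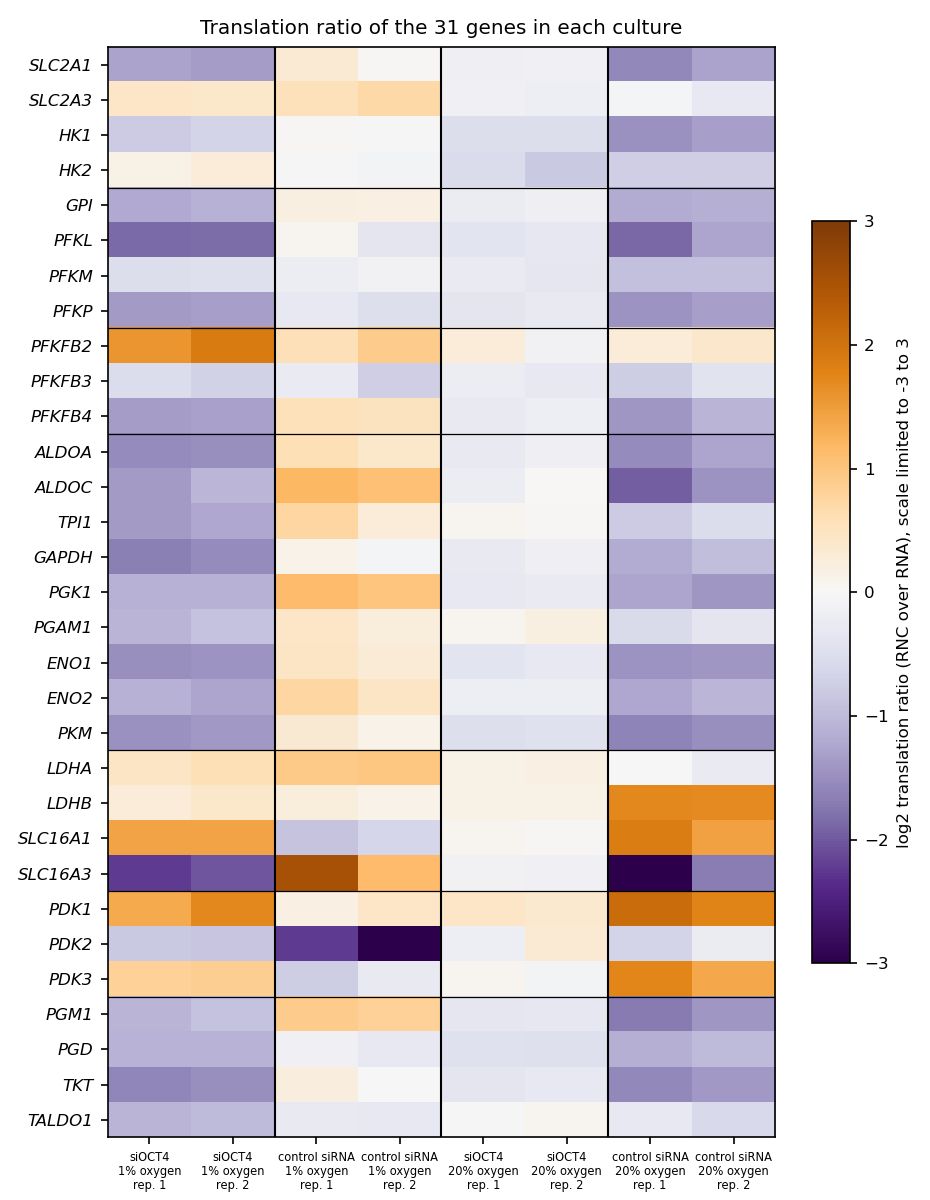
Log2 translation ratio (RNC over RNA, colour, limited to -3 to 3) of the 31 genes (rows, by role) in each of the 8 cultures (columns). The control cultures at 1% oxygen are orange for nearly all enzymes from ALDOA to PKM, whose ratios there ran from 0.965 to 2.26, while SLC16A1, PDK1 and PDK3 are orange in siOCT4 cells at 1% oxygen and in control cells at 20% oxygen.

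The 9 AT-rich genes had other medians than AT-rich genes in general. Their median ratio was 1.37 and 1.52 with siOCT4 at 1% oxygen, and 1.20 and 1.31 with control siRNA at 20% oxygen, where all tested genes under 48% GC had medians of 3.01 and 3.03 and of 3.24 and 2.82. In control cells at 1% oxygen their median was 1.47 and 1.62, against 1.01 and 1.18 for all such genes. In siOCT4 cells at 20% oxygen it was 1.06 and 0.944, against 1.27 and 1.23 for all such genes. PGK1, an ATP-yielding kinase of glycolysis, and PGM1, which interconverts glucose phosphates, lay far below the trend in the groups where it is steep.

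**Figure D2:**
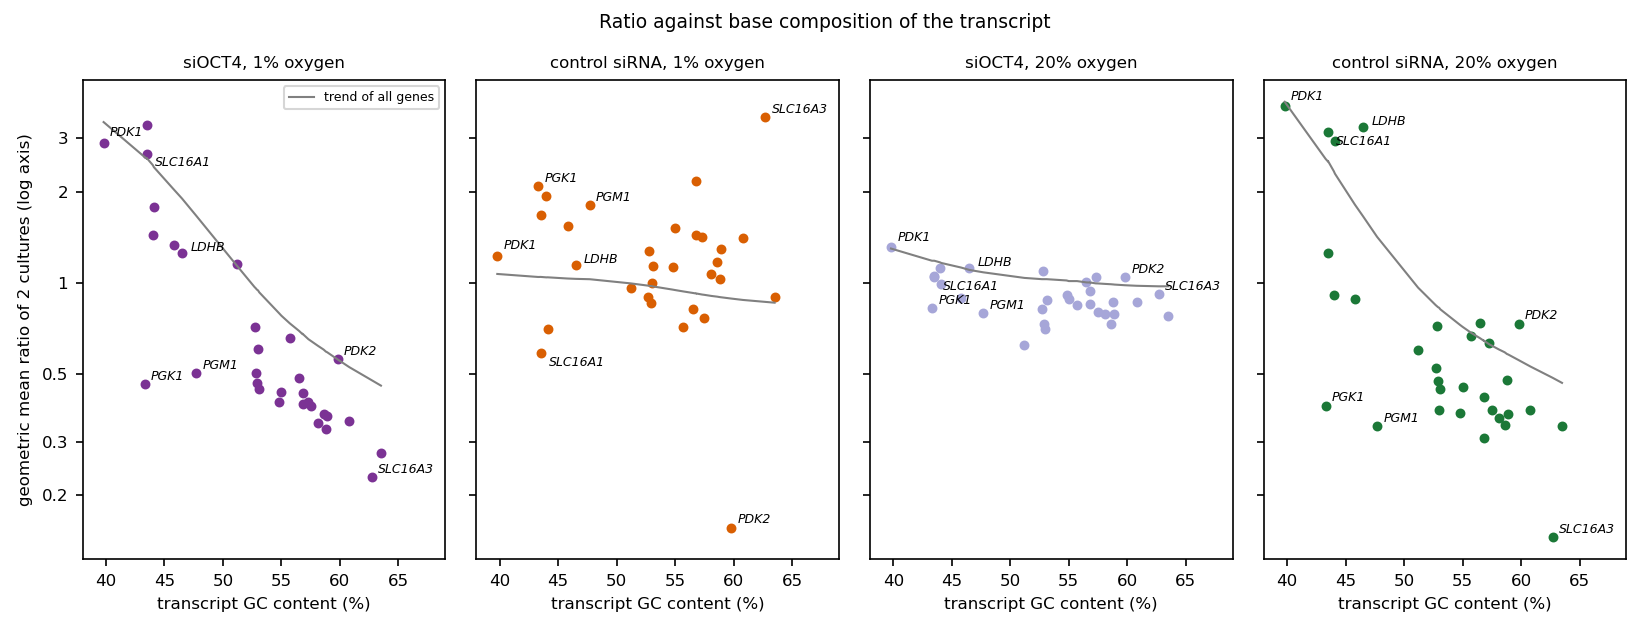
Geometric mean ratio of the 2 cultures (log axis) against transcript GC content (%) for the 31 genes in each group, with the trend of all genes as a grey line. In control cells at 1% oxygen the line is nearly flat and most points lie above it, whereas in siOCT4 cells at 1% oxygen and control cells at 20% oxygen it falls steeply and PGK1 and PGM1 lie far below it.

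Low oxygen in control cells gave the most calls. Of the 31 genes, 23 rose and 5 fell at 1% against 20% oxygen (limma, adjusted p under 0.05), while 60.2% of all genes passed, 20.5% higher and 39.6% lower. GC corrected, 24 rose and 4 fell, against 23.1% and 23.0% of all genes (46.1% in either direction). The median log2 change of the 31 genes was 1.11, against -0.31 for all genes, and GC corrected it was 0.99, against 0.01. In all, 23 genes rose and 4 fell both as deposited and GC corrected.

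Under siOCT4 the response to low oxygen ran the other way. At 1% against 20% oxygen in siOCT4 cells 6 of the 31 genes rose and 18 fell, while 59.0% of all genes passed, 37.4% higher and 21.6% lower. With each culture centred on its median the split was 4 higher and 23 lower, beside 4982 and 4615 of all 15864 genes. GC corrected, 1 rose and 16 fell, against 18.9% and 17.8% of all genes (36.6% in either direction), and the median change was -0.51, against 0.04 for all genes (-0.98 against 0.27 as deposited). As deposited, 17 genes rose with low oxygen in control cells and fell with it in siOCT4 cells. The reverse held for 3, and SLC2A3 and HK2 rose in both. GC corrected these counts were 15, 0 and 1 (HK2). The shares of all genes with these joint patterns were not counted. For the first pattern that share cannot exceed either single share. Of all genes 20.5% rose in control cells and 21.6% fell in siOCT4 cells (GC corrected 23.1% and 17.8%). GC corrected, fewer of the 31 genes and of all genes passed without siOCT4 culture 1 at 1% or either siOCT4 culture at 20% oxygen. Most of the 17 genes called were lost without some single culture. For low oxygen in control cells this was so for few of the 28 genes called.

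At 1% oxygen siOCT4 cells had lower ratios of these genes than control cells. Of the 31 genes 5 were higher and 21 lower with siOCT4 at 1% oxygen, while 61.0% of all genes passed, 41.1% higher and 19.9% lower. GC corrected, 2 were higher and 23 lower, against 21.7% and 22.3% of all genes (44.0% in either direction), and the median change was -1.09, against -0.02 for all genes (-1.33 against 0.42 as deposited).

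At 20% oxygen the difference between siOCT4 and control cells had the opposite sign and was less firm. With siOCT4 20 of the 31 genes were higher and 4 lower, while 53.3% of all genes passed, 19.2% higher and 34.1% lower. GC corrected, 10 were higher and 2 lower, against 7.24% and 7.63% of all genes (14.9% in either direction), and the median change was 0.35, against -0.03 (0.86 against -0.09 as deposited). Relative to the GC content of the coding sequence alone, 19 were higher and 2 lower, beside 2031 and 1938 of all 14197 genes so tested. Without either siOCT4 culture at 20% oxygen the GC-corrected fit in limma made no call among the 31 genes and almost none among all genes. Without control culture 1 at 20% oxygen it called 4.

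The interaction asks whether the response to low oxygen differed between siOCT4 and control cells. It was negative for 22 of the 31 genes and positive for 5, while 68.7% of all genes passed, 26.2% negative and 42.5% positive. GC corrected, it was negative for 23 and positive for 3, against 21.2% and 22.4% of all genes (43.6% with either sign), with a median of -1.36 against 0.02 for all genes (-2.04 against 0.49 as deposited). The 4 pairwise comparisons share groups of cultures with each other, so their calls are not independent of one another.

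**Figure D3:**
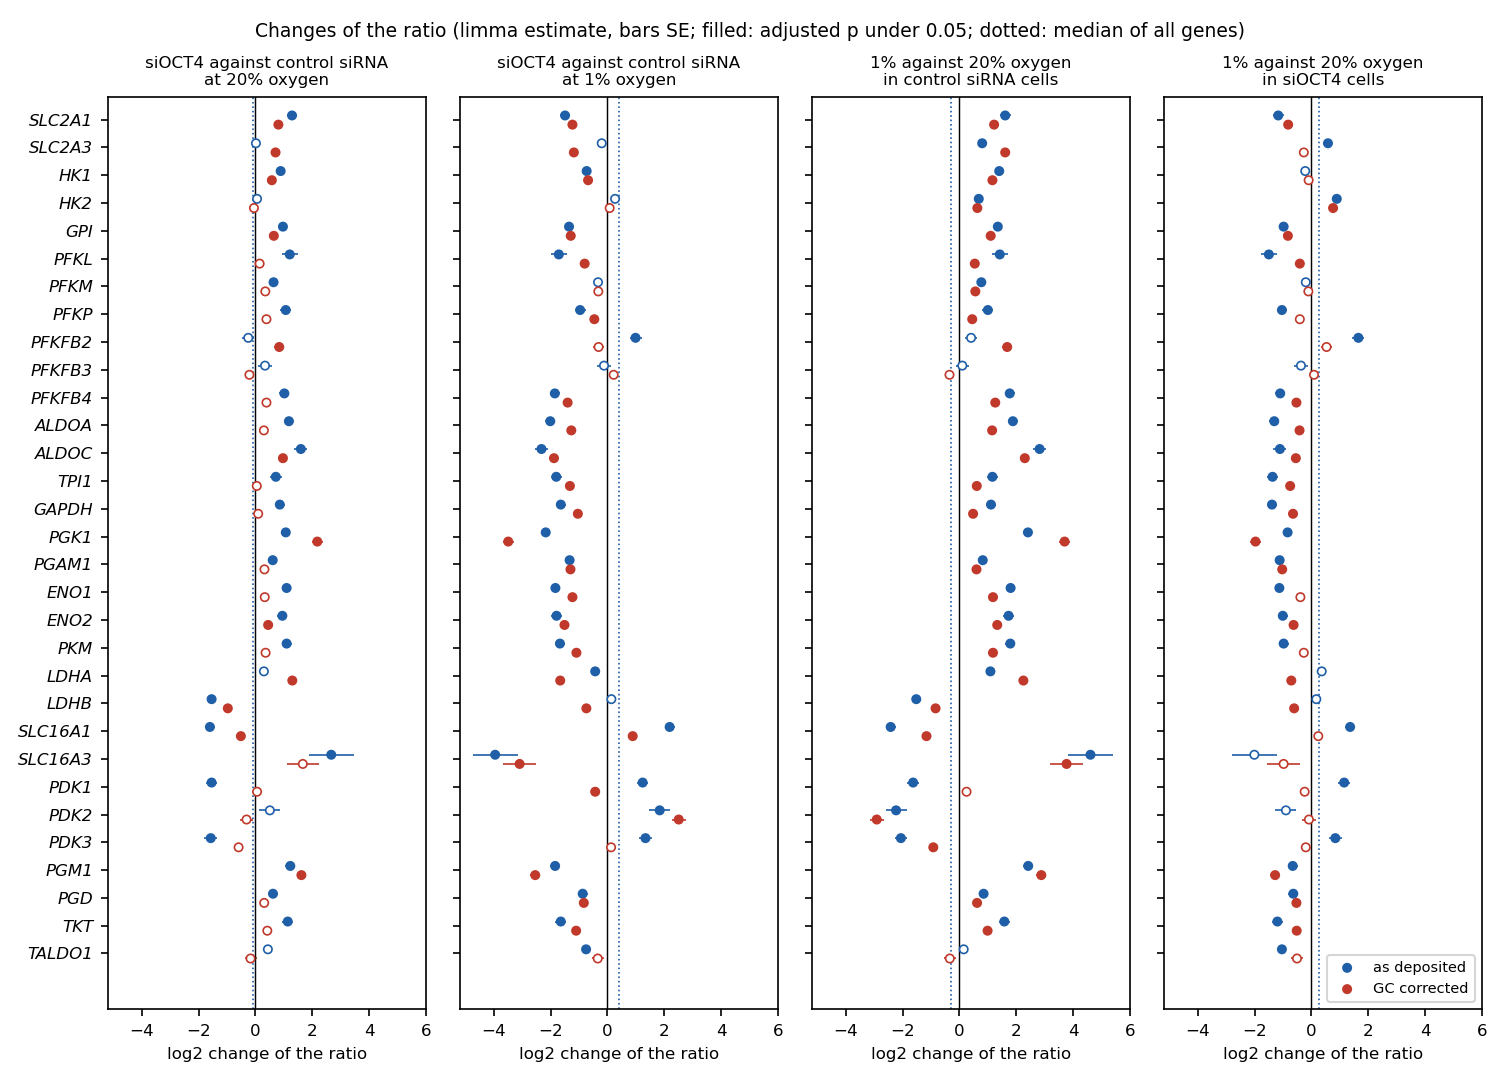
Log2 change of the ratio of each of the 31 genes in the 4 pairwise comparisons (points, limma estimate; bars, SE; n = 2 cultures per group), as deposited in blue and GC corrected in red, filled where the adjusted p was under 0.05; the dotted line is the median of all genes. Most points lie right of zero for 1% against 20% oxygen in control cells (23 of 31 called higher) and left of it for siOCT4 against control at 1% oxygen (21 of 31 called lower).

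The block of enzymes that carries the sugar from fructose bisphosphate to pyruvate moved as a whole. It holds the aldolases ALDOA and ALDOC, triose phosphate isomerase TPI1, the dehydrogenase GAPDH, the ATP-yielding kinases PGK1 and PKM, the mutase PGAM1 and the enolases ENO1 and ENO2. All 9 of 9 rose at 1% against 20% oxygen in control cells, with log2 changes of 0.82 to 2.82 as deposited and 0.48 to 3.70 GC corrected, where 20.5% and 23.1% of all genes rose. All 9 were lower with siOCT4 than with control siRNA at 1% oxygen, with log2 changes of -2.32 to -1.33 as deposited and -3.49 to -1.04 GC corrected, where 19.9% and 22.3% of all genes were lower. Their ratios ran from 0.319 to 0.479 and from 0.344 to 0.534 in the 2 siOCT4 cultures at 1% oxygen, and from 1.10 to 2.26 and from 0.965 to 2.10 in the 2 control cultures at 1% oxygen. In siOCT4 cells all 9 fell at 1% against 20% oxygen as deposited, with log2 changes of -1.39 to -0.84, and 7 of 9 GC corrected, where 21.6% and 17.8% of all genes fell. At 20% oxygen all 9 were higher with siOCT4 as deposited, but GC corrected this held for 3 of 9 (ALDOC, PGK1 and ENO2), and for 0 without either siOCT4 culture at 20% oxygen; of all genes 19.2% and 7.24% were higher. Relative to the GC content of the coding sequence alone, the difference at 20% oxygen passed for all but TPI1 and PGAM1 (adjusted p = 0.219 and 0.0892). By that measure 2031 of all 14197 genes were higher. The interaction was negative for all 9 in both fits, as deposited and GC corrected. It ran from -3.93 to -1.94 as deposited and from -5.67 to -1.14 GC corrected, where it was negative for 26.2% and 21.2% of all genes.

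ALDOC, the aldolase best known from brain, had the highest ratio of these enzymes in both control cultures at 1% oxygen. Its ratios were 0.387 and 0.489 with siOCT4 at 1% oxygen, 2.26 and 2.1 with control siRNA at 1% oxygen, 0.876 and 1.01 with siOCT4 at 20% oxygen, and 0.259 and 0.369 with control siRNA at 20% oxygen. Both control cultures at 1% oxygen lay above 2 and every other culture at or below 1.01. It rose 7.05-fold with low oxygen in control cells (log2 change 2.82 ± 0.23, adjusted p = 0.00026; GC corrected 2.30 ± 0.16) and was 5.01-fold lower with siOCT4 at 1% oxygen (-2.32 ± 0.23, adjusted p = 0.000558). Its widely expressed partner ALDOA rose less, by 1.88 ± 0.18 in control cells. The quotient of the ALDOC ratio over the ALDOA ratio was 1.12 and 1.38 with siOCT4 at 1% oxygen, 1.5 and 1.59 with control siRNA at 1% oxygen, 1.06 and 1.12 with siOCT4 at 20% oxygen, and 0.749 and 0.876 with control siRNA at 20% oxygen, so it was above 1 in all but the control cultures at 20% oxygen.

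PGK1, which makes ATP from bisphosphoglycerate, rose against the trend of its base composition. Its ratios were 0.465 and 0.461 with siOCT4 at 1% oxygen, 2.21 and 1.98 with control siRNA at 1% oxygen, 0.821 and 0.838 with siOCT4 at 20% oxygen, and 0.417 and 0.373 with control siRNA at 20% oxygen. The control cultures at 1% oxygen were the 2 high ones, and the groups at low and at high oxygen did not overlap under either siRNA. PGK1 rose 5.3-fold with low oxygen in control cells (2.41 ± 0.15, adjusted p = 0.00016), and its message, with 43.3% GC, is of a kind whose ratio fell in general in that comparison, so GC corrected the change was 3.70 ± 0.19. With siOCT4 at 1% oxygen it was 4.51-fold lower than in control cells (-2.17 ± 0.15; GC corrected -3.49 ± 0.19). Its transcript holds a long 3′ untranslated end of 3469 bases, and against the GC content of the coding sequence alone the 2 changes were 2.92 ± 0.12 and -2.90 ± 0.12.

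GAPDH, often used as a reference gene, was not constant in its ratio. Its ratios were 0.319 and 0.344 with siOCT4 at 1% oxygen, 1.1 and 0.965 with control siRNA at 1% oxygen, 0.834 and 0.904 with siOCT4 at 20% oxygen, and 0.442 and 0.518 with control siRNA at 20% oxygen. The siOCT4 cultures at 1% oxygen were the lowest and the control cultures at 1% oxygen the highest. It rose by 1.11 ± 0.18 with low oxygen in control cells (adjusted p = 0.0031) and fell with it in siOCT4 cells (-1.39 ± 0.18, adjusted p = 0.00162); GC corrected the changes were 0.48 ± 0.12 and -0.65 ± 0.12, both past the threshold. The GC-corrected calls of GAPDH were lost without control culture 1 or 2 at 1% or culture 2 at 20% oxygen (adjusted p up to 0.0895) and without siOCT4 culture 1 at 1% or culture 2 at 20% oxygen (adjusted p up to 0.0778). TPI1 had ratios of 0.388 and 0.426 with siOCT4 at 1% oxygen, 1.66 and 1.21 with control siRNA at 1% oxygen, 1.06 and 1.03 with siOCT4 at 20% oxygen, and 0.585 and 0.692 with control siRNA at 20% oxygen. As with GAPDH, its 2 siOCT4 cultures at 1% oxygen were the lowest of the 8 and its control cultures at 1% oxygen the highest. It fell with low oxygen in siOCT4 cells (-1.37 ± 0.20, adjusted p = 0.00234; GC corrected -0.75 ± 0.13, which missed the threshold without siOCT4 culture 1 at 1% or culture 2 at 20% oxygen, at adjusted p = 0.051 and 0.0547). The enolases rose together with low oxygen in control cells, ENO1 by 1.80 ± 0.17 and ENO2, the form best known from neurons, by 1.73 ± 0.18. The quotient of the ENO2 ratio over the ENO1 ratio stayed between 1.07 and 1.31 in all 8 cultures.

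The promoters of 6 genes are shown, chosen after their values were seen, so that genes with and without matches stand among both those that rose and those that fell with low oxygen in control cells as deposited: PGK1, ALDOC, LDHA and SLC2A1 rose, and LDHB and PDK1 fell. They are the 250 bases before the transcription start from RefSeq (build GRCh38.p14), written 5′ to 3′ on the gene's own strand. The letters ACGTG on either strand, a form of the core of the element bound by HIF-1, are in capitals. The form GCGTG was neither marked nor counted, so a gene without a match may still hold it. Where a gene has more than 1 window, the one with most matches is shown. Overlapping matches on the 2 strands, CACGTG, were counted as 1. PGK1 lies at chrX:78103998-78104247 on the + strand, ALDOC at chr17:28576896-28577145 on the - strand, LDHA at chr11:18394313-18394562 on the + strand, SLC2A1 at chr1:42958869-42959118 on the - strand, LDHB at chr12:21657843-21658092 on the - strand and PDK1 at chr2:172555840-172556089 on the + strand.
PGK1: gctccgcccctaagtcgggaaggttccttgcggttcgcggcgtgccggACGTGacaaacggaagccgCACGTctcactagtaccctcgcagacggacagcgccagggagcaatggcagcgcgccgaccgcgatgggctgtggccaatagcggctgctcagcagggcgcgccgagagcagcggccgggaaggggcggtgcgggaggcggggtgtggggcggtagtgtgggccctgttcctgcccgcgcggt
ALDOC: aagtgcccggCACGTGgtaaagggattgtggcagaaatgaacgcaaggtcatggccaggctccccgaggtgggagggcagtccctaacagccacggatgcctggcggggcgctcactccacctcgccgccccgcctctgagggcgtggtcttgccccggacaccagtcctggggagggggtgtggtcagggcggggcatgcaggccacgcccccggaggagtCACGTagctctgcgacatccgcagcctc
LDHA: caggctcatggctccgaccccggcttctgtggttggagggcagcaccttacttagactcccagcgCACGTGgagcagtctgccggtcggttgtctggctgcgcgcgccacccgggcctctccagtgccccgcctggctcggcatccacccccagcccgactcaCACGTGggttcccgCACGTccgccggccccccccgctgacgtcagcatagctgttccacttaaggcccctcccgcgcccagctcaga
SLC2A1: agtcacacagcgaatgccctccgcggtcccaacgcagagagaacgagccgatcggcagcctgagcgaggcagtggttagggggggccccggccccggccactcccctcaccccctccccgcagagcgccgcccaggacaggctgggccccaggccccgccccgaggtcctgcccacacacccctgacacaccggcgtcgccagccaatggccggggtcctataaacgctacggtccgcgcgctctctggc
LDHB: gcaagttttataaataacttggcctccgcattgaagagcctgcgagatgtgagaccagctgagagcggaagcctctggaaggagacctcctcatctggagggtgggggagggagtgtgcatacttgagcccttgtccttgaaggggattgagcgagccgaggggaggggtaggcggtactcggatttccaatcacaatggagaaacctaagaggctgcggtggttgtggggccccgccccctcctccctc
PDK1: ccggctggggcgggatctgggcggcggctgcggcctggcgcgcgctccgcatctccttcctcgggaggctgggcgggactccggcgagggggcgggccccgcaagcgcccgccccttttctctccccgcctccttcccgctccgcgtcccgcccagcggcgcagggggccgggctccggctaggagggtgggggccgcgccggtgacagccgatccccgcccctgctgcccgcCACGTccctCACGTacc
PGK1 and ALDOC held 2 matches each, LDHA 3 and PDK1 2 in the window shown and 0 in the other, and SLC2A1 and LDHB 0. Of the 22 genes with an entry that rose with low oxygen in control cells as deposited 14 held a match in some window and 8 (SLC2A1, HK1, PFKL, PFKFB4, PGAM1, ENO1, PKM and TKT) held none. Of the 4 that fell, PDK1, PDK2 and PDK3 held a match and LDHB none. Over the 28 of 31 genes with an entry, 21 of 58 windows (36.2%) held a match, against 21.6% of the 17448 windows of tested genes and 18.5% of all windows. A match is a description of the letters and not a bound site, and promoters bear on transcription, not on the ratio; SLC2A3, PFKFB2 and SLC16A1 had no entry.

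Glucose entry rose with low oxygen in control cells for all 4 of its genes, by 0.68 to 1.61 as deposited and 0.63 to 1.61 GC corrected. Of all genes 20.5% and 23.1% rose in the same fits. SLC2A1 encodes GLUT1, the widely expressed glucose transporter. Its ratios were 0.415 and 0.393 with siOCT4 at 1% oxygen, 1.24 and 1.03 with control siRNA at 1% oxygen, 0.906 and 0.917 with siOCT4 at 20% oxygen, and 0.337 and 0.41 with control siRNA at 20% oxygen. The siOCT4 cultures at 1% oxygen and the control cultures at 20% oxygen shared the low end, at 0.415 or below, and the others lay at 0.906 or above. SLC2A1 rose 3.05-fold with low oxygen in control cells (1.61 ± 0.19, adjusted p = 0.00082) and fell 2.26-fold with it in siOCT4 cells (-1.17 ± 0.19, adjusted p = 0.00333). With siOCT4 it was 2.45-fold higher than with control siRNA at 20% oxygen (1.29 ± 0.19) and 2.8-fold lower at 1% oxygen (-1.49 ± 0.19). GC corrected these 4 changes were 1.22, -0.82, 0.81 and -1.23, each past the threshold, the third not without either siOCT4 culture or control culture 1 at 20% oxygen (adjusted p up to 0.118).

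SLC2A3 encodes GLUT3, a transporter with high affinity for glucose, and as deposited its AT-rich message behaved otherwise. Its ratios were 1.36 and 1.32 with siOCT4 at 1% oxygen, 1.47 and 1.62 with control siRNA at 1% oxygen, 0.909 and 0.881 with siOCT4 at 20% oxygen, and 0.961 and 0.812 with control siRNA at 20% oxygen. All 4 cultures at 1% oxygen lay above all 4 at 20% oxygen. It rose with low oxygen in control cells (0.80 ± 0.14) and in siOCT4 cells (0.58 ± 0.14); GC corrected the first was 1.61 ± 0.10 and the second -0.27 ± 0.10 (adjusted p = 0.0886), no longer called. The deposited call in siOCT4 cells was lost without any 1 of the 4 siOCT4 cultures (0.56 to 0.60, adjusted p up to 0.0767). The quotient of the SLC2A1 ratio over the SLC2A3 ratio was 0.305 and 0.298 with siOCT4 at 1% oxygen, 0.843 and 0.64 with control siRNA at 1% oxygen, 0.997 and 1.04 with siOCT4 at 20% oxygen, and 0.35 and 0.505 with control siRNA at 20% oxygen. As deposited SLC2A3 passed in neither siOCT4 comparison (0.02 ± 0.14 at 20% and -0.20 ± 0.14 at 1% oxygen). GC corrected these were 0.71 ± 0.10 and -1.18 ± 0.10 (adjusted p = 0.0193 and 0.00116), beside 0.81 and -1.23 for SLC2A1. The call at 20% oxygen was lost without either siOCT4 culture there. GC corrected, the interaction was -1.89 ± 0.15 for SLC2A3 and -2.04 ± 0.15 for SLC2A1.

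The hexokinases, which trap glucose by phosphorylation, parted in siOCT4 cells. HK1, the constitutive form, had ratios of 0.585 and 0.627 with siOCT4 at 1% oxygen, 1.03 and 0.972 with control siRNA at 1% oxygen, 0.705 and 0.708 with siOCT4 at 20% oxygen, and 0.361 and 0.4 with control siRNA at 20% oxygen. HK2, the form induced in many tumours and in low oxygen, had ratios of 1.12 and 1.2 with siOCT4 at 1% oxygen, 0.975 and 0.95 with control siRNA at 1% oxygen, 0.686 and 0.57 with siOCT4 at 20% oxygen, and 0.601 and 0.602 with control siRNA at 20% oxygen. The HK1 ratio was lowest in the control cultures at 20% oxygen, whereas all 4 HK2 ratios at 1% oxygen lay above all 4 at 20% oxygen. HK2 rose with low oxygen in control cells (0.68 ± 0.15, adjusted p = 0.00959) and in siOCT4 cells (0.89 ± 0.15, adjusted p = 0.0037), and GC corrected by 0.63 ± 0.12 and 0.76 ± 0.12, the second at 0.65 (adjusted p = 0.0505) without siOCT4 culture 2 at 20% oxygen. HK1 rose in control cells (1.40 ± 0.16) and had a change of -0.22 ± 0.16 in siOCT4 cells (adjusted p = 0.276). The interaction was -1.62 ± 0.23 for HK1 (adjusted p = 0.00123) and 0.22 ± 0.21 for HK2 (adjusted p = 0.397). HK2 passed neither of the 2 siOCT4 comparisons, as deposited or GC corrected. Relative to the GC content of the coding sequence HK2 differed by 0.39 ± 0.13 with siOCT4 at 1% oxygen (adjusted p = 0.0444). Its interaction was then 0.63 ± 0.18 (adjusted p = 0.0271). By that measure the HK1 change in siOCT4 cells was -0.48 ± 0.10 (adjusted p = 0.0136).

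GPI, the isomerase of hexose phosphates, and the 3 phosphofructokinases, which catalyse the committed step, rose with low oxygen in control cells (4 of 4 in both fits, where 20.5% of all genes rose as deposited and 23.1% GC corrected). The GC-corrected call of PFKP (0.45 ± 0.13, adjusted p = 0.0371) was kept without control culture 1 at 20% oxygen but lost without any other single culture (adjusted p up to 0.116). Its change was 0.31 without control culture 2 at 20% oxygen. PFKL, the liver form, moved most as deposited. Its ratios were 0.274 and 0.278 with siOCT4 at 1% oxygen, 1.05 and 0.775 with control siRNA at 1% oxygen, 0.761 and 0.798 with siOCT4 at 20% oxygen, and 0.27 and 0.421 with control siRNA at 20% oxygen. The siOCT4 cultures at 1% oxygen and control cultures at 20% oxygen were low, and the control cultures at 20% oxygen differed between themselves, at 0.270 and 0.421. PFKL fell with low oxygen in siOCT4 cells (-1.50 ± 0.29, adjusted p = 0.00658), the most negative of the 31 genes among those called, and its transcript is the most GC-rich of the 31, at 63.5%. GC corrected the change was -0.41 ± 0.09 (adjusted p = 0.0199), beside a change of -0.41 ± 0.13 for PFKP, the platelet form (adjusted p = 0.0584), and the PFKL call was lost without any 1 of the 4 siOCT4 cultures (adjusted p up to 0.118). PFKM, the muscle form, had changes of 0.77 ± 0.14 in control cells, -0.20 ± 0.14 in siOCT4 cells and -0.33 ± 0.14 for siOCT4 at 1% oxygen. Of these the first passed. GC corrected the first was 0.56 ± 0.12, and 0.47 and no longer called without control culture 2 at 1% oxygen. Relative to the GC content of the coding sequence the 3 changes were 0.98 ± 0.09, -0.57 ± 0.09 and -0.75 ± 0.09, all past the threshold. GPI was 2.55-fold lower with siOCT4 at 1% oxygen (-1.35 ± 0.15, adjusted p = 0.000735; GC corrected -1.29 ± 0.11).

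The 3 PFKFB genes encode the bifunctional enzymes that set the level of the sugar bisphosphate activating phosphofructokinase, and they did not share a pattern. PFKFB4 had ratios of 0.393 and 0.407 with siOCT4 at 1% oxygen, 1.46 and 1.42 with control siRNA at 1% oxygen, 0.825 and 0.887 with siOCT4 at 20% oxygen, and 0.374 and 0.476 with control siRNA at 20% oxygen. Its control cultures at 1% oxygen stood clear of all others. It rose 3.41-fold with low oxygen in control cells (1.77 ± 0.18; GC corrected 1.26 ± 0.11) and was 3.59-fold lower with siOCT4 at 1% oxygen (-1.85 ± 0.18; GC corrected -1.40 ± 0.11).

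PFKFB2 had ratios of 2.97 and 3.7 with siOCT4 at 1% oxygen, 1.5 and 1.86 with control siRNA at 1% oxygen, 1.21 and 0.925 with siOCT4 at 20% oxygen, and 1.2 and 1.31 with control siRNA at 20% oxygen. The siOCT4 cultures at 1% oxygen were the highest, and the groups at 20% oxygen overlapped. As deposited it rose with low oxygen in siOCT4 cells (1.65 ± 0.21, adjusted p = 0.00142), but GC corrected that change was 0.53 ± 0.18 (adjusted p = 0.0649), while the change in control cells was 0.41 ± 0.21 as deposited and 1.68 ± 0.18 GC corrected (adjusted p = 0.135 and 0.00139). Its interaction changed sign with the correction and was 1.24 ± 0.29 as deposited and -1.15 ± 0.25 GC corrected. PFKFB2 and PFKFB4 are the 2 of the 31 genes with a ratio shared by at least 3 genes of a culture within a relative 2e-06. PFKFB3, the form most often linked to proliferating cells, passed in none of the 4 pairwise comparisons in either fit; its ratios were 0.699 and 0.617 with siOCT4 at 1% oxygen, 0.85 and 0.602 with control siRNA at 1% oxygen, 0.877 and 0.819 with siOCT4 at 20% oxygen, and 0.59 and 0.754 with control siRNA at 20% oxygen.

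At the lactate step the sister genes parted. LDHA encodes the subunit common in glycolytic tissue and LDHB the subunit common in heart. LDHA had ratios of 1.37 and 1.52 with siOCT4 at 1% oxygen, 1.91 and 1.97 with control siRNA at 1% oxygen, 1.12 and 1.13 with siOCT4 at 20% oxygen, and 0.994 and 0.841 with control siRNA at 20% oxygen. LDHB had ratios of 1.2 and 1.32 with siOCT4 at 1% oxygen, 1.19 and 1.1 with control siRNA at 1% oxygen, 1.12 and 1.12 with siOCT4 at 20% oxygen, and 3.3 and 3.24 with control siRNA at 20% oxygen. For LDHA both cultures at 1% oxygen under each siRNA lay above those at 20%, and for LDHB the control cultures at 20% oxygen stood apart from all 6 others, at above 3. With low oxygen in control cells LDHA rose by 1.09 ± 0.14 (adjusted p = 0.00114) and LDHB changed by -1.52 ± 0.12 (adjusted p = 0.000259). In siOCT4 cells the deposited change of LDHA was 0.36 ± 0.14 and did not pass (adjusted p = 0.0703). The quotient of the LDHA ratio over the LDHB ratio was 1.6 and 1.8 in control cells at 1% oxygen, against 0.302 and 0.26 at 20% oxygen, and 1.14 and 1.16 in siOCT4 cells at 1% oxygen, against 1.0 and 1.01 at 20% oxygen.

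The 2 messages are both AT-rich, with 44.0% GC for LDHA and 46.5% for LDHB. GC corrected, LDHA rose by 2.25 ± 0.11 and LDHB changed by -0.84 ± 0.12 (adjusted p = 0.00323) with low oxygen in control cells. The LDHB call depended on which part of the transcript was used, since against the GC content of the coding sequence (43.8%) it was 0.18 ± 0.15 (adjusted p = 0.355), while LDHA was at 2.55 ± 0.11. In siOCT4 cells LDHA fell with low oxygen after correction, by -0.71 ± 0.11 GC corrected (adjusted p = 0.00697). Relative to the coding sequence that change was -0.88 ± 0.11 (adjusted p = 0.00251). The GC-corrected value was -0.67 and no longer called without siOCT4 culture 2 at 20% oxygen. With siOCT4 at 1% oxygen LDHA was lower than in control cells, with log2 changes of -0.43 ± 0.14 as deposited and -1.66 ± 0.11 GC corrected (adjusted p = 0.0389 and 0.001). The deposited call was lost without any 1 of the 4 cultures at 1% oxygen or either siOCT4 culture at 20% oxygen (-0.50 to -0.35, adjusted p up to 0.181). At 20% oxygen LDHB was 2.92-fold lower with siOCT4 (-1.54 ± 0.12, adjusted p = 0.000653). GC corrected this was -0.97 ± 0.12 (adjusted p = 0.016). That call was lost without either siOCT4 culture or control culture 1 at 20% oxygen (adjusted p up to 0.113). Relative to the coding sequence it was -0.05 ± 0.15 (adjusted p = 0.813).

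The lactate transporters SLC16A3 (MCT4), the export carrier of glycolytic cells, and SLC16A1 (MCT1), which carries lactate and pyruvate in both directions, formed the widest contrast. SLC16A3 had ratios of 0.213 and 0.245 with siOCT4 at 1% oxygen, 5.71 and 2.19 with control siRNA at 1% oxygen, 0.927 and 0.918 with siOCT4 at 20% oxygen, and 0.0668 and 0.315 with control siRNA at 20% oxygen. The control cultures at 1% oxygen were the highest 2, although they differed from each other more than for any enzyme of the lower pathway, and the control cultures at 20% oxygen differed most of all. SLC16A3 rose 24.4-fold with low oxygen in control cells (4.61 ± 0.79, adjusted p = 0.00388; GC corrected 3.77 ± 0.57, adjusted p = 0.00435). At 1% oxygen it was 15.5-fold lower with siOCT4 than with control siRNA (-3.95 ± 0.79, adjusted p = 0.00699; GC corrected -3.09 ± 0.57). At 20% oxygen it was higher with siOCT4 as deposited (2.67 ± 0.79, adjusted p = 0.0336) but not past the threshold GC corrected (1.67 ± 0.57, adjusted p = 0.108). The deposited call was lost without any 1 of the 4 siOCT4 cultures (2.66 to 2.68, adjusted p up to 0.114) and without control culture 1 at 20% oxygen, where the change was 1.55 (adjusted p = 0.0947).

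SLC16A1 went the other way. Its ratios were 2.68 and 2.66 with siOCT4 at 1% oxygen, 0.541 and 0.636 with control siRNA at 1% oxygen, 1.06 and 1.03 with siOCT4 at 20% oxygen, and 3.65 and 2.71 with control siRNA at 20% oxygen. The siOCT4 cultures at 1% oxygen and the control cultures at 20% oxygen were high, the control cultures at 1% oxygen were the lowest, and the groups did not overlap in any comparison. SLC16A1 changed by -2.42 ± 0.18 with low oxygen in control cells (adjusted p = 0.000209) and was 4.55-fold higher with siOCT4 at 1% oxygen (2.19 ± 0.18, adjusted p = 0.000354). GC corrected these were -1.16 ± 0.12 and 0.89 ± 0.12, both past the threshold; its message has 43.5% GC. Its rise with low oxygen in siOCT4 cells (1.36 ± 0.18) was 0.24 ± 0.12 GC corrected (adjusted p = 0.168). The quotient of the SLC16A3 ratio over the SLC16A1 ratio was 0.0794 and 0.0922 with siOCT4 at 1% oxygen, 10.5 and 3.44 with control siRNA at 1% oxygen, 0.878 and 0.894 with siOCT4 at 20% oxygen, and 0.0183 and 0.116 with control siRNA at 20% oxygen, so it was above 1 in the control cultures at 1% oxygen alone.

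**Figure D4:**
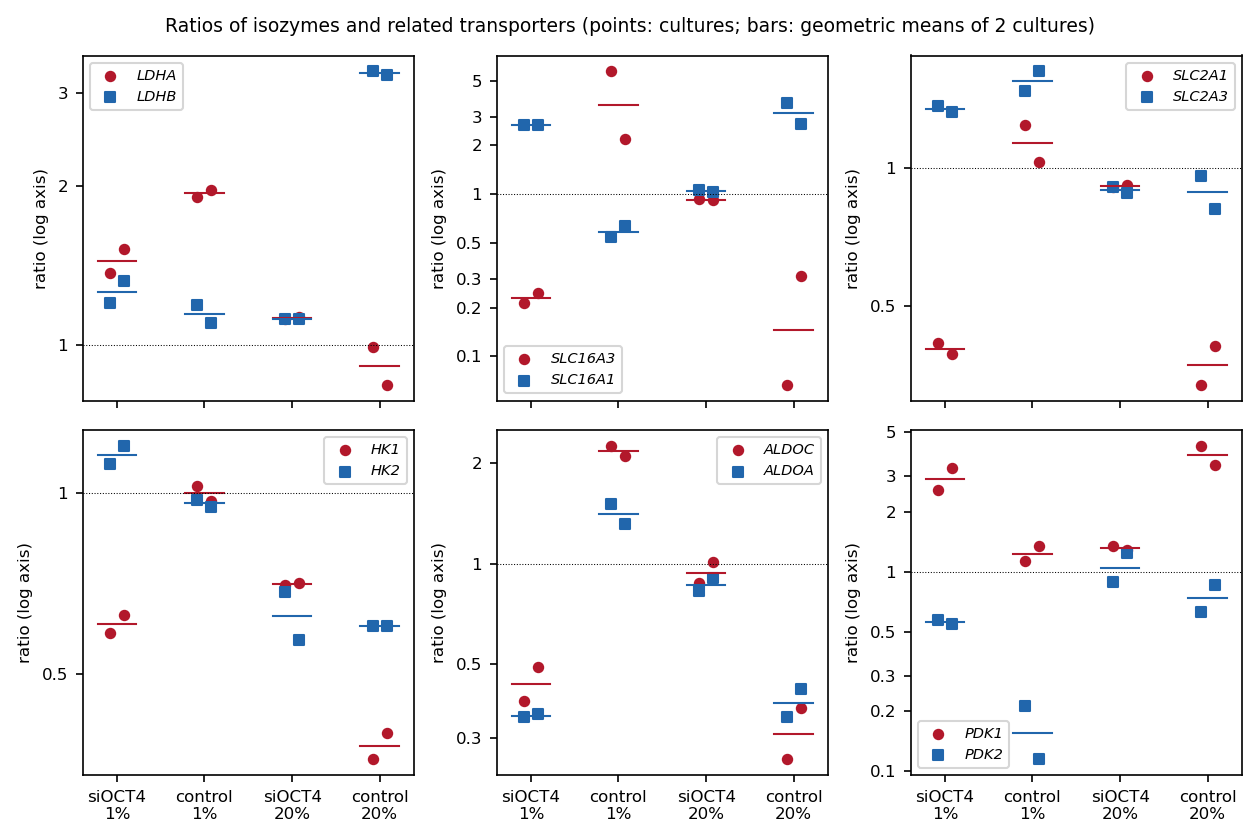
Translation ratio (log axis; the range differs between panels) of related genes in the 8 cultures, with bars at the geometric mean of the 2 cultures of a group. LDHA and LDHB, and SLC16A3 and SLC16A1, exchange places between control cells at 1% oxygen (LDHA 1.91 and 1.97, LDHB 1.19 and 1.10) and control cells at 20% oxygen (LDHA 0.994 and 0.841, LDHB 3.30 and 3.24).

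The 3 pyruvate dehydrogenase kinases switch off the entry of pyruvate into the citric acid cycle. As deposited all 3 fell with low oxygen in control cells, where 39.6% of all genes fell. All 3 were higher with siOCT4 than with control siRNA at 1% oxygen, where 41.1% of all genes were higher. For PDK2 both calls held GC corrected. PDK2 had ratios of 0.572 and 0.549 with siOCT4 at 1% oxygen, 0.212 and 0.115 with control siRNA at 1% oxygen, 0.887 and 1.24 with siOCT4 at 20% oxygen, and 0.632 and 0.855 with control siRNA at 20% oxygen. The control cultures at 1% oxygen were the lowest 2 by far. It changed by -2.23 ± 0.37 with low oxygen in control cells (adjusted p = 0.00306) and was 3.58-fold higher with siOCT4 at 1% oxygen (1.84 ± 0.37, adjusted p = 0.00649). Its message is GC-rich (59.8%), and GC corrected the changes were -2.91 ± 0.24 and 2.51 ± 0.24. PDK2 was the only GC-rich member that fell with low oxygen in control cells in both fits.

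PDK1, a known HIF-1 target, and PDK3 have AT-rich messages. PDK1 had ratios of 2.56 and 3.29 with siOCT4 at 1% oxygen, 1.13 and 1.34 with control siRNA at 1% oxygen, 1.34 and 1.29 with siOCT4 at 20% oxygen, and 4.28 and 3.42 with control siRNA at 20% oxygen. The cultures with control siRNA at 20% oxygen were the highest, followed by those with siOCT4 at 1% oxygen, and the other 4 lay between 1.13 and 1.34. With low oxygen in control cells PDK1 changed by -1.63 ± 0.20 as deposited (adjusted p = 0.000855), by 0.25 ± 0.13 relative to its whole transcript of 14193 bases (adjusted p = 0.166) and by -0.74 ± 0.16 relative to its coding sequence (adjusted p = 0.0102). For siOCT4 at 1% oxygen the values were 1.24 ± 0.20, -0.43 ± 0.13 and 0.20 ± 0.16 (adjusted p = 0.00265, 0.043 and 0.314). The sign thus changed with the whole-transcript correction, where PDK1 was called lower. That call was kept without siOCT4 culture 2 at 1% oxygen but lost without any other single culture.

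PDK3 had ratios of 1.75 and 1.81 with siOCT4 at 1% oxygen, 0.592 and 0.836 with control siRNA at 1% oxygen, 1.04 and 0.944 with siOCT4 at 20% oxygen, and 3.33 and 2.58 with control siRNA at 20% oxygen. Its high groups were those of PDK1, and its control cultures at 1% oxygen were the lowest. It changed by -2.06 ± 0.22 with low oxygen in control cells (adjusted p = 0.000529), by -0.92 ± 0.15 GC corrected (adjusted p = 0.0051) and by -0.36 ± 0.13 relative to the coding sequence (adjusted p = 0.0554). For siOCT4 at 1% oxygen the deposited difference of 1.34 ± 0.22 was 0.13 ± 0.15 GC corrected (adjusted p = 0.527). The quotient of the PDK1 ratio over the PDK2 ratio was 4.48 and 5.99 with siOCT4 at 1% oxygen, 5.33 and 11.7 with control siRNA at 1% oxygen, 1.51 and 1.04 with siOCT4 at 20% oxygen, and 6.77 and 4.0 with control siRNA at 20% oxygen.

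PGM1 links glycolysis with glycogen by moving the phosphate of glucose phosphate. Its ratios were 0.475 and 0.535 with siOCT4 at 1% oxygen, 1.86 and 1.76 with control siRNA at 1% oxygen, 0.795 and 0.799 with siOCT4 at 20% oxygen, and 0.308 and 0.372 with control siRNA at 20% oxygen. The control cultures at 1% oxygen were again the 2 high ones, with no overlap in any comparison. It rose 5.35-fold with low oxygen in control cells (2.42 ± 0.17, adjusted p = 0.000181; GC corrected 2.88 ± 0.17) and was 3.59-fold lower with siOCT4 at 1% oxygen (-1.84 ± 0.17; GC corrected -2.54 ± 0.17). At 20% oxygen it was 2.35-fold higher with siOCT4 (1.23 ± 0.17; GC corrected 1.62 ± 0.17, adjusted p = 0.0154, and up to 0.113 without either siOCT4 culture at 20% oxygen).

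The pentose phosphate enzymes, which supply NADPH and ribose, were not uniform. TKT, the transketolase, rose by 1.58 ± 0.19 with low oxygen in control cells and PGD, which makes NADPH, by 0.85 ± 0.17; GC corrected these were 0.99 ± 0.13 and 0.62 ± 0.11. With siOCT4 at 1% oxygen TKT differed by -1.64 ± 0.19 and PGD by -0.87 ± 0.17, and GC corrected by -1.10 ± 0.13 and -0.83 ± 0.11, all past the threshold. TALDO1, the transaldolase, had ratios of 0.475 and 0.499 with siOCT4 at 1% oxygen, 0.831 and 0.81 with control siRNA at 1% oxygen, 0.971 and 1.04 with siOCT4 at 20% oxygen, and 0.819 and 0.666 with control siRNA at 20% oxygen. Those of the control cells at 1% and 20% oxygen overlapped, and the change between them was 0.15 ± 0.16 (adjusted p = 0.448). As deposited TALDO1 was lower with siOCT4 at 1% oxygen (-0.75 ± 0.16, adjusted p = 0.00865) and fell with low oxygen in siOCT4 cells (-1.04 ± 0.16, adjusted p = 0.00282). The first was -0.72 and not called without siOCT4 culture 1 at 1% oxygen. GC corrected these changes were -0.34 ± 0.21 and -0.51 ± 0.21, and TALDO1 passed in none of the 4 pairwise comparisons. Relative to the coding sequence they were -0.83 ± 0.16 and -1.05 ± 0.16 (adjusted p = 0.00705 and 0.00413).

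The other genes of these pathways were 80, of which 64 had a ratio in all 8 cultures. GC corrected they too were lower more often than higher with siOCT4 at 1% oxygen. There 8 were higher and 25 lower (12.5% and 39.1%, against 21.7% and 22.3% of all genes). As deposited 21 were higher and 19 lower (32.8% and 29.7%, against 41.1% and 19.9% of all genes). With low oxygen in control cells 14 rose and 18 fell as deposited (21.9% and 28.1%, against 20.5% and 39.6% of all genes), and 14 rose and 12 fell GC corrected (21.9% and 18.8%, against 23.1% and 23.0%). With low oxygen in siOCT4 cells 25 rose and 22 fell as deposited (39.1% and 34.4%, against 37.4% and 21.6%). GC corrected 7 rose and 17 fell (10.9% and 26.6%, against 18.9% and 17.8%). At 20% oxygen 21 were higher and 19 lower with siOCT4 as deposited (32.8% and 29.7%, against 19.2% and 34.1%). GC corrected these were 3 and 6 (4.69% and 9.38%, against 7.24% and 7.63%). Whether these shares differ from those of all genes or of the 31 genes was not tested.

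The partners of the lactate carriers, chosen after their values were seen, are given beside them. BSG (basigin), the chaperone of both carriers, had ratios of 0.342 and 0.337 with siOCT4 at 1% oxygen, 1.17 and 0.907 with control siRNA at 1% oxygen, 1.03 and 1.14 with siOCT4 at 20% oxygen, and 0.484 and 0.545 with control siRNA at 20% oxygen. EMB (embigin), which can also partner SLC16A1, had ratios of 3.31 and 2.74 with siOCT4 at 1% oxygen, 0.362 and 0.525 with control siRNA at 1% oxygen, 1.51 and 1.7 with siOCT4 at 20% oxygen, and 9.83 and 11.3 with control siRNA at 20% oxygen. With low oxygen in control cells BSG rose by 1.00 ± 0.19 as deposited and its change was 0.17 ± 0.16 GC corrected (adjusted p = 0.441), whereas EMB fell (log2 change -4.59 ± 0.22 as deposited and -2.44 ± 0.21 GC corrected, adjusted p = 0.00086). With siOCT4 at 1% oxygen BSG differed from control cells by -0.74 ± 0.16 and EMB by 1.03 ± 0.21 GC corrected (adjusted p = 0.0148 and 0.0108). EMB and SLC16A1 had their lowest ratios in the same 2 cultures, those with control siRNA at 1% oxygen. All tested genes under 48% GC, of which SLC16A1 is 1, also had their lowest medians there, at 1.01 and 1.18. Whether EMB and SLC16A1 are linked beyond that was not tested.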

How the data were processed

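RNA-seq and RNC-seq libraries of H9 cells had been reduced by the authors to 1 deposited table of ratios, RNC over RNA, per gene and culture. The submitters' processing notes name edgeR and the build hg19 without their role; the aligner is not given in the sources used here, and depth is unknown. The columns marked "sO" were read as siOCT4. The log2 of the ratio, with no pseudocount, was fitted with limma 3.58.1 (R 4.3.3; trend and robust settings, 4 group means, 4 residual degrees of freedom) over 15864 genes, with two-sided tests, Benjamini-Hochberg adjustment over all of them and a threshold of 0.05. Changes are limma estimates ± SE with n = 2 cultures per group. The labels do not say whether replicates were grown separately, so the p-values reflect spread among these cultures, which may be technical. The GC correction took residuals from a natural spline (6 degrees of freedom) on the GC content of the longest coding transcript in GENCODE release 29 (matched by symbol, 15261 genes, 96.2%); its build differs from that of the table and no coordinates were taken from it. Coding-sequence GC correction and a crossed replicate block were added after the data were seen. The fit was tested on simulated data. Other alternatives were GC and length, the replicate number as a block, median centring, limma without trend and robust settings, a pseudocount of 0.1, keeping the 8087 genes without a ratio shared by at least 3 genes within a relative 2e-06, and leaving out each culture. Replicate numbers were checked for pairing: deviations of same-numbered cultures correlated between groups at -0.233 to 0.0225. Members, lists and tests were chosen with earlier results of these data known. Described in full are, per pairwise comparison, the 3 called members with the largest change in each direction and the member of each role with the largest change, with their isozymes. Python 3.11.15 with numpy 2.4.6, pandas 2.3.3 and matplotlib 3.10.9 did the remaining steps.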

Additional observations from a re-analysis of the deposited data

Results flagged for a closer look

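The response to low oxygen differed between siOCT4 and control cells for 27 of the 31 genes (limma interaction, adjusted p under 0.05), a test that 68.7% of all genes passed, given here as the log2 change at 1% against 20% oxygen with siOCT4 minus that with control siRNA. It was negative in the aldolase-to-pyruvate block, at -3.19 for ALDOA, -3.93 for ALDOC, -2.52 for TPI1, -2.50 for GAPDH, -3.25 for PGK1, -1.94 for PGAM1, -2.93 for ENO1, -2.74 for ENO2 and -2.77 for PKM. Upstream it was -2.78 for SLC2A1, -1.62 for HK1, -2.32 for GPI, -2.92 for PFKL, -0.97 for PFKM, -2.04 for PFKP and -2.87 for PFKFB4. It was also negative for LDHA at -0.73, SLC16A3 at -6.62, PGM1 at -3.08, PGD at -1.49, TKT at -2.78 and TALDO1 at -1.20. It was positive for PFKFB2 at 1.24, LDHB at 1.68, SLC16A1 at 3.78, PDK1 at 2.78 and PDK3 at 2.90. GC corrected, LDHB was 0.23 ± 0.17 (adjusted p = 0.31), PDK1 -0.49 ± 0.18 (adjusted p = 0.0784) and TALDO1 -0.17 ± 0.30 (adjusted p = 0.683), none past the threshold, and PFKFB2 was -1.15 ± 0.25 (adjusted p = 0.0146). PDK3 was 0.72 ± 0.21 GC corrected (adjusted p = 0.0389). That call was lost without any 1 of 6 cultures, all but control culture 2 at either oxygen level (adjusted p up to 0.116). It was -0.13 ± 0.18 relative to the coding sequence (adjusted p = 0.572). GC corrected, LDHA was -2.96 ± 0.16, PGK1 -5.67 ± 0.27 and SLC16A1 1.40 ± 0.17, all past the threshold.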

How the results depend on the processing

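Base composition was the choice that moved most. Of 155 results (31 genes in 5 comparisons), GC correction left 103 with their direction and side of the threshold, coding-sequence GC correction 117, limma without trend and robust settings 154 and a pseudocount of 0.1 153. For siOCT4 against control siRNA at 20% oxygen, 24 genes passed as deposited, 12 with GC correction and 21 with coding-sequence GC correction. There 13 passed with GC and length and 6 with GC and a replicate block. For low oxygen in siOCT4 cells 24 passed as deposited, 25 with coding-sequence GC correction, 13 with GC and length and 15 with GC and a replicate block. The replicate numbers do not pair the cultures; the replicate block gave 21 and 25 genes for siOCT4 at 20% and 1% oxygen, 28 and 24 for low oxygen under control siRNA and siOCT4, and 27 for the interaction, and 4 of the 155 results lost their call. A crossed block kept the side and direction of all 155. Leaving out 1 culture gave 16 to 24 genes for siOCT4 at 20% oxygen, and 0 to 9 with GC correction, where limma called 4 and 3 of all genes without either siOCT4 culture at 20% oxygen. For low oxygen in siOCT4 cells leaving out 1 culture gave up to 25 genes, and 5 to 19 with GC correction. Of all genes, 8450 passed for siOCT4 at 20% oxygen as deposited, 2270 with GC correction, 2444 with GC and length and 442 with GC and a block. With coding-sequence GC correction 3969 of 14197 genes passed.

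The following log2 values had the sign opposite to the called deposited change; the cause was not tested. With GC correction, and equally with GC and a replicate block, PDK1 was 0.06 for siOCT4 at 20% oxygen, -0.43 for siOCT4 at 1% oxygen, 0.25 for low oxygen in control cells, -0.24 for low oxygen in siOCT4 cells and -0.49 in the interaction. So were PFKFB2 at -0.31 for siOCT4 at 1% oxygen and -1.15 in the interaction, and SLC2A3 at -0.27 and PDK3 at -0.20 for low oxygen in siOCT4 cells. With GC and length PDK1 was -0.82 for siOCT4 at 1% oxygen, 0.12 and -0.63 for low oxygen in control and siOCT4 cells and -0.75 in the interaction. PFKFB2 was then -0.64 and -1.49, SLC2A3 -0.37, and TALDO1 0.06 for siOCT4 at 1% oxygen and 0.22 in the interaction. With coding-sequence GC, LDHB was 0.18 for low oxygen in control cells and -1.34 in the interaction, PDK3 -0.20 for siOCT4 at 1% oxygen, -0.49 for low oxygen in siOCT4 cells and -0.13 in the interaction, SLC2A3 -0.11 for low oxygen in siOCT4 cells and PFKFB2 -0.24 in the interaction. Over both fits with 1 culture left out, PDK1 ran from -1.71 to 0.11, -0.59 to 1.41, -1.80 to 0.29, -0.40 to 1.32 and -0.65 to 2.96 in siOCT4 at 20% and at 1% oxygen, low oxygen in control cells, low oxygen in siOCT4 cells and the interaction. PFKFB2 ran from -0.47 to 1.15 for siOCT4 at 1% oxygen and -1.32 to 1.43 in the interaction, PDK3 from -0.04 to 1.59 for siOCT4 at 1% oxygen and -0.24 to 0.91 for low oxygen in siOCT4 cells, and SLC2A3 from -0.30 to 0.60 for low oxygen in siOCT4 cells. For siOCT4 at 20% oxygen TPI1 ran from -0.02 to 0.84 and GAPDH from 0.00 to 0.97, and in the interaction TALDO1 ran from -1.35 to 0.15.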

Other observations

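Among the other genes of these pathways, PGM2L1, which makes glucose bisphosphate and was chosen after its values were seen, had ratios of 5.07 and 6.44 with siOCT4 at 1% oxygen, 0.247 and 0.326 with control siRNA at 1% oxygen, 1.22 and 1.13 with siOCT4 at 20% oxygen, and 5.65 and 4.25 with control siRNA at 20% oxygen. Its 2 control cultures at 1% oxygen were the lowest of the 8, and they did not overlap with the groups they are compared with. It changed by -4.11 ± 0.23 with low oxygen in control cells (limma, adjusted p = 0.000154; GC corrected -2.06 ± 0.14, adjusted p = 0.000573), where PGM1 rose by 2.42 ± 0.17. With siOCT4 at 1% oxygen it was higher than with control siRNA, by 4.33 ± 0.23 as deposited and 2.60 ± 0.14 GC corrected (adjusted p = 0.001).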
